A study of Mus musculus with 6 samples.

Results

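Genes of Wnt signalling were followed in whole adult mouse brain after loss of Pofut1. They are the secreted inhibitors Sfrp1, Sfrp2, Wif1 and Dkk3, the R-spondins Rspo1, Rspo2 and Rspo3, and the Wnt response genes Axin2 and Lef1. The members were taken by name, as all probe sets to which the platform annotation gives 1 of these symbols and no other. This gave 18 of 45037 probe sets, and 9 of 18193 genes with a symbol of their own. No probe set shared by a member and another gene was found.

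Wnt proteins bind Frizzled receptors and the co-receptors Lrp5 and Lrp6, which stops the destruction of beta-catenin and lets it act with Tcf and Lef proteins on target genes. Secreted Frizzled-related proteins and Wif1 bind Wnt proteins outside the cell, whereas R-spondins act through Lgr receptors to keep Frizzled receptors at the surface. In the adult brain the pathway is known for its part in neural progenitor niches and in the maintenance of the blood-brain barrier.

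The study compared 3 groups of 2 arrays, each array holding RNA of 1 brain sample from C57/Bl6 mice aged 2 months, with no treatment named. Knockout brains were Pofut1flox/flox and carried Nestin cre. NestinCre control brains carried Nestin cre with wild-type Pofut1. Flox control brains were Pofut1flox/flox with no Cre named. Nestin-Cre is active in neural progenitors and their descendants, so cells of other origin in a whole brain need not lose the gene.

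Pofut1, the O-fucosyltransferase that modifies Notch receptors, measured 9.25 and 9.44 on the log2 scale in knockout brains, 9.84 and 9.77 in NestinCre control and 9.95 and 9.81 in Flox control at its brightest probe set. The knockout arrays lay below all control arrays, with a log2 difference of -0.50 (SE 0.08) from both controls, and all 3 Pofut1 probe sets had negative differences. Whether these probe sets lie in the deleted stretch was not examined. Brain markers were at high levels, with the synaptic gene Snap25 averaging 13.09 and all 9 measured brain markers above the median probe set, which stood at 7.34. Xist and Y-linked transcripts placed knockout replicate 1 and NestinCre control replicate 2 as male and the other 4 arrays as female. Flox control, all female, also had the highest summed level of pituitary markers. The summed intensity of 9 pituitary markers was 3111 and 3443 in knockout, 3276 and 3389 in NestinCre control and 4088 and 5198 in Flox control.

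At the brightest probe set, all 7 secreted modulators but Wif1 had a lower mean in knockout brain than the average of both controls. The lower ones had log2 differences between -0.16 and -0.43. Of all genes, 59.3% were lower at their brightest probe set. The response genes Axin2 and Lef1 stood at 0.14 and -0.11, within the spread between arrays. At an unadjusted p under 0.05 in limma's moderated test, 5 of the 18 probe sets were lower in knockout than the average of the NestinCre and Flox control means, here called both controls, where 5.08% of all probe sets were. None was higher, against 6.04% of all probe sets. Without knockout replicate 1 the 5 became 3. The 5 were Sfrp1 (probe sets 1 and 4 in order of brightness) and the brightest probe sets of Rspo1, Rspo2 and Dkk3. After Benjamini-Hochberg adjustment over all probe sets no member passed 0.05, a level that 0.0155% of all probe sets reached. Of the member probe sets, 14 had a negative difference and 4 a positive one, where 52.5% of all probe sets had a negative one. The median was -0.16, against -0.0052 over all probe sets. Probe sets of 1 gene share its transcripts and are not independent. In 5 member probe sets both knockout arrays lay below all 4 control arrays, as in 9.19% of all probe sets, and in 0 they lay above them, as in 8.77%. Taking the brightest probe set of each gene, 4 of 9 genes were lower and 0 higher, against 6.45% and 4.16% of all genes. The 9 genes and the lists used below were chosen with earlier results of these data known. Counts set beside all probe sets or genes, here and below, are therefore a description and not independent evidence.

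**Figure D1:**
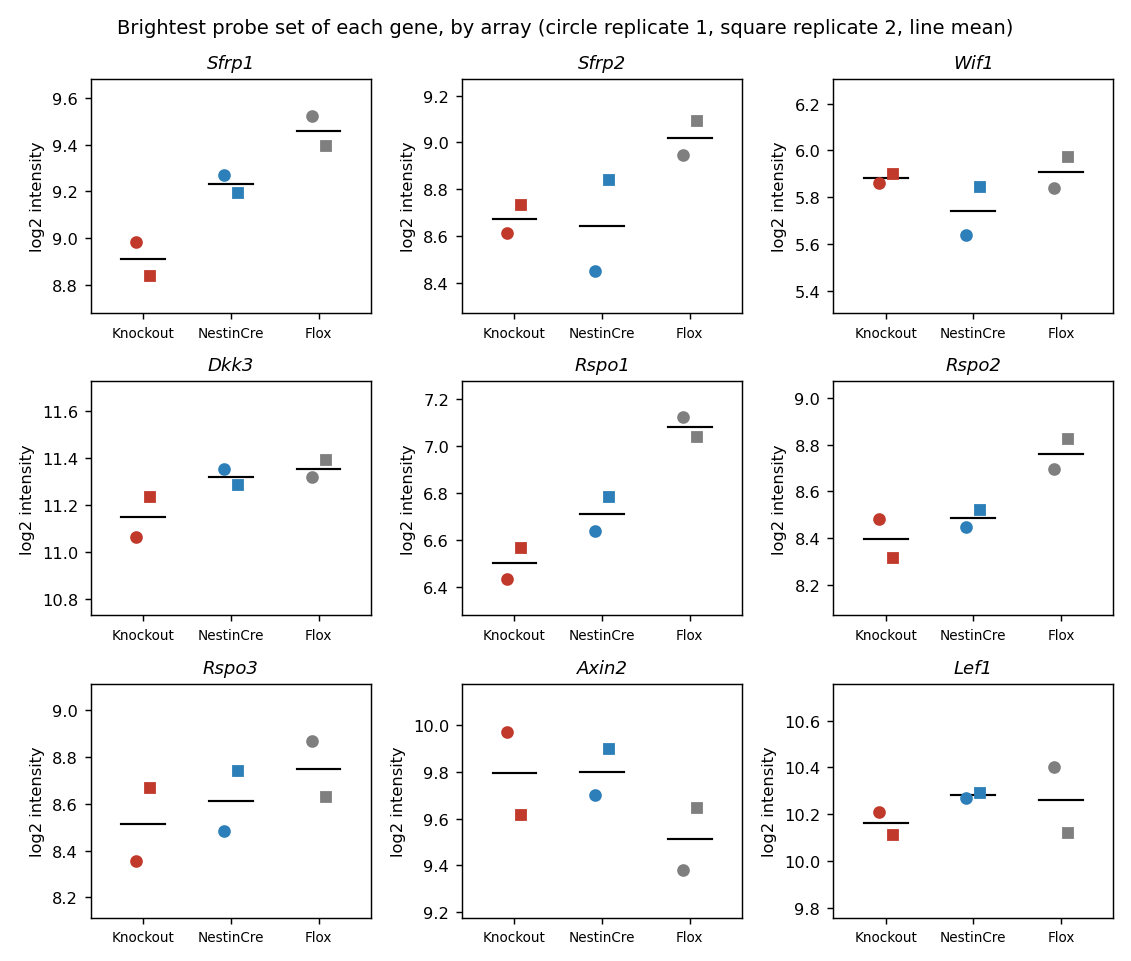
Log2 intensity of the brightest probe set of each of the 9 genes in each array, grouped as knockout, NestinCre control and Flox control, with circles for replicate 1, squares for replicate 2 and lines for group means. Sfrp1 and Rspo1 separate all 3 groups, with knockout lowest, whereas the groups overlap for Axin2 and Lef1. Vertical axes differ between panels.

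Sfrp1, a secreted Frizzled-related protein that binds Wnt proteins, showed the clearest difference among the inhibitors. Its brightest probe set measured 8.98 and 8.84 in knockout, 9.27 and 9.19 in NestinCre control and 9.52 and 9.39 in Flox control on the log2 scale. The 3 groups did not overlap: knockout was lowest and Flox control highest. As linear intensities these are 506 and 458 in knockout, 617 and 585 in NestinCre control and 735 and 673 in Flox control. Knockout was 1.35-fold below both controls (log2 difference -0.43, SE 0.07, limma, adjusted p = 0.214). The difference was -0.32 (SE 0.08) against NestinCre control and -0.55 (SE 0.08) against Flox control. NestinCre control itself was below Flox control by a log2 difference of -0.23 (SE 0.08).

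The other 4 Sfrp1 probe sets were all below the median brightness of the array and also had negative differences, of -0.085 (SE 0.18), -0.72 (SE 0.46), -0.31 (SE 0.09) and -0.16 (SE 0.12) from brightest to dimmest. The largest of these rests on 1 array: that probe set read 7.84 in NestinCre control replicate 2 and 5.87 to 6.43 in the other 5 arrays. No other Sfrp1 probe set showed a high value in that array. In the probe set at -0.31, both knockout arrays, at 5.66 and 5.94, lay below the controls, at 6.13 and 6.07 in NestinCre control and 6.10 and 6.13 in Flox control.

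Sfrp2, a close relative of Sfrp1 with the same Frizzled-like domain, had 1 probe set. It measured 8.61 and 8.73 in knockout, 8.45 and 8.84 in NestinCre control and 8.95 and 9.09 in Flox control. Knockout lay within the range of NestinCre control, and both were below Flox control. The log2 difference was -0.16 (SE 0.13) from both controls, 0.029 (SE 0.15) from NestinCre control and -0.35 (SE 0.15) from Flox control. The first of these was -0.25 without NestinCre control replicate 1, where it reached an unadjusted p under 0.05, against -0.062 when replicate 2 of that group was left out. It was -0.10 without knockout replicate 1 and -0.0036 in the female arrays alone. NestinCre control differed from Flox control by -0.37 (SE 0.15, limma, adjusted p = 0.480).

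Dkk3, a divergent member of the Dickkopf family, was measured by 2 bright probe sets. Its brighter probe set measured 11.06 and 11.23 in knockout, 11.35 and 11.29 in NestinCre control and 11.32 and 11.39 in Flox control. Both knockout arrays lay below all controls by a small margin, with a log2 difference of -0.19 (SE 0.07, limma, adjusted p = 0.423). The second Dkk3 probe set, also bright, overlapped between the groups, with a difference of -0.018 (SE 0.15). The unadjusted call of the brighter one was lost under 10 of 15 alternative settings, among them the female arrays alone, which hold 1 knockout array (-0.12). Without knockout replicate 1 the difference was -0.11.

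Wif1, a secreted protein that sequesters Wnt proteins, was near the bottom of the range, brighter than 20.9% of probe sets. It measured 5.86 and 5.90 in knockout, 5.64 and 5.84 in NestinCre control and 5.84 and 5.97 in Flox control. The groups overlapped, with a difference of 0.057 (SE 0.08) and a 95% interval of -0.15 to 0.27. It ranged over 0.0053 to 0.11 with 1 array left out.

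Among the R-spondins, which amplify Wnt signals, Rspo1 differed most. It measured 6.43 and 6.57 in knockout, 6.64 and 6.78 in NestinCre control and 7.12 and 7.04 in Flox control. The order of the groups was that of Sfrp1, again without overlap. Knockout was 1.32-fold below both controls (log2 difference -0.40, SE 0.07, limma, adjusted p = 0.229). The difference was -0.58 (SE 0.08) against Flox control and -0.21 (SE 0.08, limma, adjusted p = 0.874) against NestinCre control. The controls differed from each other by -0.37 (SE 0.08, limma, adjusted p = 0.380), NestinCre against Flox. Its single probe set was brighter than 40.7% of all probe sets.

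Rspo2 was measured by 1 bright and 1 dim probe set. The bright one read 8.48 and 8.32 in knockout, 8.45 and 8.52 in NestinCre control and 8.69 and 8.83 in Flox control. Knockout and NestinCre control overlapped, and both lay below Flox control. The differences were -0.23 (SE 0.07) from both controls, -0.088 (SE 0.09) from NestinCre control and -0.36 (SE 0.09) from Flox control. The dim probe set ranged from 5.92 to 6.06 over the 6 arrays and showed no separation, at 0.0053 (SE 0.06). The unadjusted call of the bright one was lost under 7 of 15 alternatives. In 6 of them the difference stayed between -0.19 and -0.29, and without knockout replicate 2 it was -0.14.

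For Rspo3 the group means ran in the order seen for Sfrp1, with wider spread. Its brighter probe set measured 8.36 and 8.67 in knockout, 8.48 and 8.74 in NestinCre control and 8.87 and 8.63 in Flox control, and all groups overlapped. The dimmer one measured 6.86 and 6.98 in knockout, 6.93 and 7.08 in NestinCre control and 7.10 and 7.27 in Flox control. Differences from both controls were -0.17 (SE 0.14) and -0.18 (SE 0.08). The first was -0.012 without knockout replicate 1 and -0.32 without knockout replicate 2, and 0.052 in the female arrays alone. Leaving out replicate 2 of NestinCre control gave -0.10, and replicate 1 of Flox control -0.11. Only the dimmer probe set reached an unadjusted limma p under 0.05, and against Flox control alone (-0.27, SE 0.10, limma, adjusted p = 0.282).

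Axin2, a scaffold of the beta-catenin destruction complex and a widely used readout of Wnt activity, did not separate knockout from the controls. Its bright probe set measured 9.97 and 9.62 in knockout, 9.70 and 9.90 in NestinCre control and 9.38 and 9.65 in Flox control. The highest values were those of the 2 male arrays, at 9.90 and 9.97, while the 4 female arrays lay between 9.38 and 9.70. The log2 difference from both controls was 0.14 (SE 0.14), with a 95% interval of -0.23 to 0.50, and 0.068 with sex as a covariate. It was -0.041 without knockout replicate 1, 0.31 without knockout replicate 2 and 0.0091 in the female arrays alone. Leaving out replicate 1 of NestinCre control gave 0.087, and replicate 1 of Flox control 0.071. The dimmer Axin2 probe set differed by 0.025 (SE 0.05).

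Lef1, a transcription factor that carries beta-catenin to its targets and is itself a target, measured 10.21 and 10.11 in knockout, 10.27 and 10.29 in NestinCre control and 10.40 and 10.12 in Flox control at its bright probe set. Knockout overlapped Flox control and lay below both NestinCre control arrays. The difference from both controls was -0.11 (SE 0.09), with a 95% interval of -0.35 to 0.13, and that of the dim probe set -0.033 (SE 0.05). Single arrays moved the bright probe set's value, to -0.18 without Flox control replicate 2, where it reached an unadjusted p under 0.05, to -0.039 without Flox control replicate 1 and to -0.061 without knockout replicate 2.

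**Figure D2:**
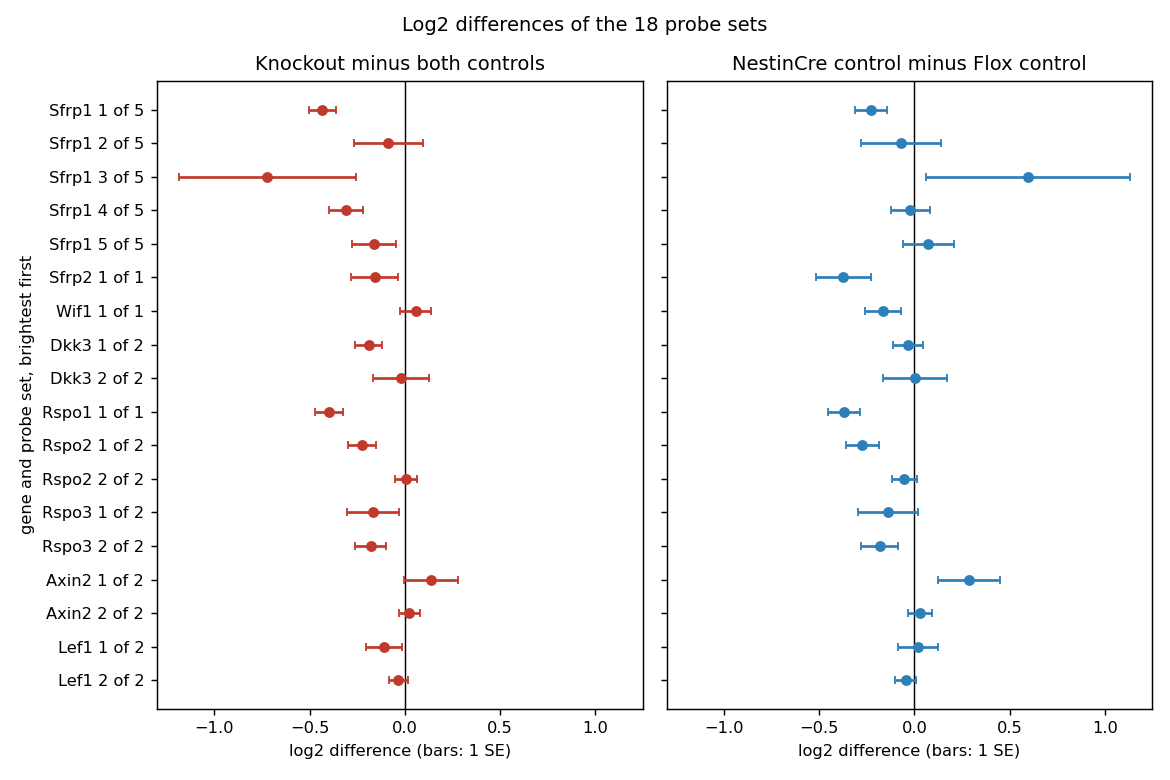
Log2 differences of all 18 probe sets, knockout minus both controls on the left and NestinCre control minus Flox control on the right, with bars of 1 SE from limma and probe sets ordered from brightest to dimmest within each gene. Most points lie left of 0 on the left, led by Sfrp1 and Rspo1, and the R-spondins and Sfrp2 lie left of 0 on the right as well. The wide bar belongs to the third Sfrp1 probe set, with 1 high array.

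Promoter windows were set beside these levels, because Tcf and Lef proteins recognise CTTTGA and CTTTGT and the Notch effector Rbpj recognises TGGGAA. RefSeq windows of 250 bases before an annotated start, build GRCm38.p6, were matched for 5 of the 9 genes, Sfrp2, Wif1, Rspo1, Axin2 and Lef1. Both strands were searched. Shown are the R-spondin that differed most and the response genes, 5′ to 3′ on the plus strand, with motif matches in capitals. Rspo1 lies at chr4:124986180-124986429, Axin2 at chr11:108920099-108920348, the first Lef1 start at chr3:131110047-131110296 and the last at chr3:131156044-131156293.
Rspo1: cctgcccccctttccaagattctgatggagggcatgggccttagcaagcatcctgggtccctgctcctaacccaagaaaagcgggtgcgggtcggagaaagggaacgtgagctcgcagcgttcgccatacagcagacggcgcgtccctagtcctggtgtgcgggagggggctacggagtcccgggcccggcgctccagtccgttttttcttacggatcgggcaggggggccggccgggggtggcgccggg
Axin2: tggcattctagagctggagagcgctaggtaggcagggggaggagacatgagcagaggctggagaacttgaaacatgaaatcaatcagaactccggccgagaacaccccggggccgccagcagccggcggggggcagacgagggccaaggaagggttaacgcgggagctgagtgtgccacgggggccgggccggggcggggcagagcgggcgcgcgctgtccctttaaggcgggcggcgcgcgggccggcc
Lef1 first start: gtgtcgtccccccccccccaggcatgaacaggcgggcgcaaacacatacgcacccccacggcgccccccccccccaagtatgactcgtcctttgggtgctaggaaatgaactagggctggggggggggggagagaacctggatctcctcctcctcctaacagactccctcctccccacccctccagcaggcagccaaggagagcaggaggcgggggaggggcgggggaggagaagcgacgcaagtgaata
Lef1 last start: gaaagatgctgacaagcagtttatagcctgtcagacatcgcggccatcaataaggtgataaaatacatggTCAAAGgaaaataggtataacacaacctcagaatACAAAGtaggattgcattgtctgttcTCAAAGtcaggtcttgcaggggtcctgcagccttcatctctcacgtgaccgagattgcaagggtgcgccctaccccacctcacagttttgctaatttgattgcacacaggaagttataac

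Matches were found only at the last of 4 Lef1 starts. It held 2 matches of CTTTGA and 1 of CTTTGT, each on the minus strand and so read in the capitals as TCAAAG and ACAAAG, with first bases at positions -180, -146 and -120 relative to the start and no overlap. Of 32851 mouse promoter windows of this length, 13.8% held CTTTGA, 16.5% CTTTGT and 21.6% TGGGAA, and 0.776% held 3 or more of the Tcf and Lef motifs. These are matches of letters only. The minimum of 3 equals the number found at this Lef1 start, the only member window with matches, so the 0.776% is no test of that window. The windows of Sfrp2, Wif1, Rspo1 and Axin2 did not hold these letters, from which nothing follows about the factors.

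The comparisons with each control gave different shares of members. Against NestinCre control, 2 of 18 probe sets, both of Sfrp1, were lower at an unadjusted limma p under 0.05, where 2.61% of all probe sets were, and 0 were higher, where 3.2% were. The 2 became 1 without knockout replicate 1, NestinCre control replicate 2 or either Flox control array. No probe set of the array passed after adjustment (0%). Against Flox control, 6 were lower, where 7.65% of all probe sets were, and 0 higher, where 8.29% were. These were 2 of Sfrp1 and 1 each of Dkk3, Rspo1, Rspo2 and Rspo3, and the 6 became 3 without knockout replicate 1. No member passed after adjustment there, a level reached by 0.00444% of all probe sets. Both comparisons share the knockout arrays.

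The controls also differed from each other. In NestinCre control 3 of 18 probe sets were lower than in Flox control at an unadjusted limma p under 0.05, of Sfrp1, Rspo1 and Rspo2, where 5.22% of all probe sets were. None was higher, where 5.2% were, and no probe set of the array passed after adjustment (0%). For 9 of 18 member probe sets the group means ran in the order knockout, NestinCre control, Flox control from low to high, as they did for 24.6% of all probe sets. In 6 of 18 both Flox control arrays lay above the other 4 arrays, as in 13.7% of all probe sets. Flox control differs from NestinCre control in genotype, sex of 1 array and the summed level of pituitary markers together, which cannot be told apart. Only 2 of the 9 measured pituitary markers were above the median brightness.

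The rest of the pathway was described by 6 lists, taken at the brightest probe set of each gene. Over all genes, 59.3% were below 0 in knockout against both controls, with a median of -0.021, and at an unadjusted limma p under 0.05 6.45% were lower and 4.16% higher. Of 19 Wnt ligands 16 were below 0, with a median of -0.12, and 3 were lower and 0 higher. Wnt10a measured 6.34 and 6.41 in knockout, 6.67 and 6.68 in NestinCre control and 6.91 and 6.82 in Flox control, with a difference of -0.39 (SE 0.05, limma, adjusted p = 0.176). It is dim, brighter than 38.4% of probe sets, and its groups did not overlap. Wnt4 differed by -0.31 (SE 0.10) and Wnt2 by -0.18 (SE 0.07). Only 5 of the 19 ligands were above the median brightness. Against NestinCre control alone, 12 ligands were below 0, with a median of -0.027, where 50.9% of all genes were below 0. Between the controls, NestinCre minus Flox, 16 were below 0, with a median of -0.12, where 64.2% of all genes were. Against Flox control, 8 of the 19 ligands were lower, where 10% of all genes were, and in NestinCre control 5 were lower than in Flox control, where 7.07% of all genes were. No ligand passed after adjustment.

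Fzd2, a Frizzled receptor, had the largest difference among all pathway genes examined. Its brightest probe set measured 8.82 and 8.72 in knockout, 9.92 and 10.01 in NestinCre control and 9.78 and 10.42 in Flox control. Knockout was 2.40-fold below both controls (log2 difference -1.26, SE 0.18, limma, adjusted p = 0.182), and the controls were close to each other, at -0.14 (SE 0.21) for NestinCre against Flox. Both remaining Fzd2 probe sets, far dimmer, stood at -0.16 (SE 0.07) and -0.28 (SE 0.12). Of 18 measured receptors and co-receptors 1 was lower and 1 higher, near the 6.45% and 4.16% of all genes, with a median of -0.0018. The higher one was Ror1, a receptor tyrosine kinase for Wnt proteins, at 7.39 and 7.20 in knockout, 6.95 and 6.88 in NestinCre control and 6.96 and 7.07 in Flox control. That is a log2 difference of 0.33 (SE 0.08), and its 2 other, dim probe sets stood at -0.025 and -0.024 (SE 0.05 each).

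Sfrp5, of the same subfamily as Sfrp1, was the 1 lower gene of 13 other secreted or surface inhibitors, which had a median of -0.044. It measured 6.62 and 6.81 in knockout, 7.49 and 7.18 in NestinCre control and 7.26 and 7.89 in Flox control. Both knockout arrays lay below all controls, with a difference of -0.74 (SE 0.20, limma, adjusted p = 0.331). This probe set was brighter than 48.0% of all probe sets. The dimmer Sfrp5 probe set differed by -0.17 (SE 0.12). Frzb, also a Frizzled-related protein, stood at -0.29 (SE 0.12, limma, adjusted p = 0.471).

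Lgr5, an R-spondin receptor, was the 1 higher gene of 6 R-spondin receptors and partners. It measured 7.64 and 7.27 in knockout, 6.98 and 7.21 in NestinCre control and 6.78 and 6.90 in Flox control. Its order is thus the reverse of that of Rspo1, with a difference of 0.49 (SE 0.13, limma, adjusted p = 0.326), while the second Lgr5 probe set stood at -0.069 (SE 0.11). Of 27 intracellular transducers 1 was lower, Bcl9l, a beta-catenin cofactor (-0.34, SE 0.09), and 0 were higher. The dimmer Bcl9l probe sets stood at 0.0082 (SE 0.08) and -0.15 (SE 0.05). Among 14 other response genes 2 were lower and 0 higher. With 6.45% of all genes lower and 4.16% higher, counts of 1 or 2 in lists of this size are not results about the lists. The 2 lower response genes were Bambi, a pseudoreceptor of the TGF-beta family (-0.30, SE 0.08), and Dact1, a Dishevelled-binding protein (-0.22, SE 0.09). Bambi measured 7.70 and 7.82 in knockout, 7.77 and 7.96 in NestinCre control and 8.26 and 8.23 in Flox control, so that only Flox control stood apart. Dact1 measured 7.81 and 7.98 in knockout, 7.82 and 8.03 in NestinCre control and 8.33 and 8.31 in Flox control. Only Flox control stood apart for Dact1 as well. No gene of these lists passed after adjustment.

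**Figure D3:**
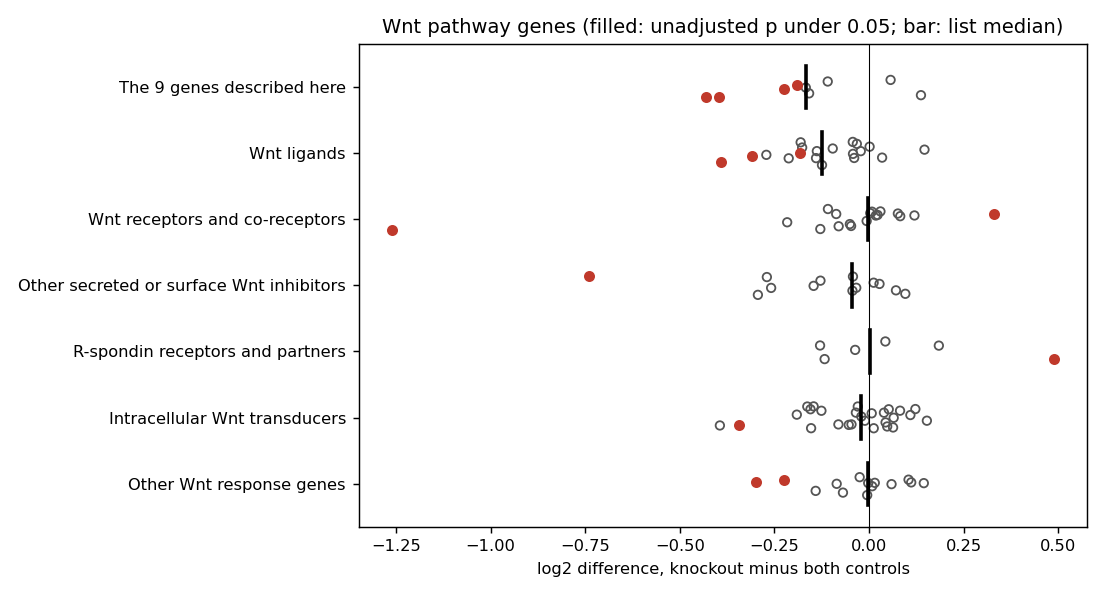
Log2 difference, knockout minus both controls, of the brightest probe set of every measured gene in the 9 genes described here and in 6 other Wnt pathway lists. Filled points have an unadjusted limma p under 0.05 and bars mark list medians. Fzd2 at -1.26 and Sfrp5 at -0.74 lie farthest left and Lgr5 at 0.49 farthest right.

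**Figure D4:**
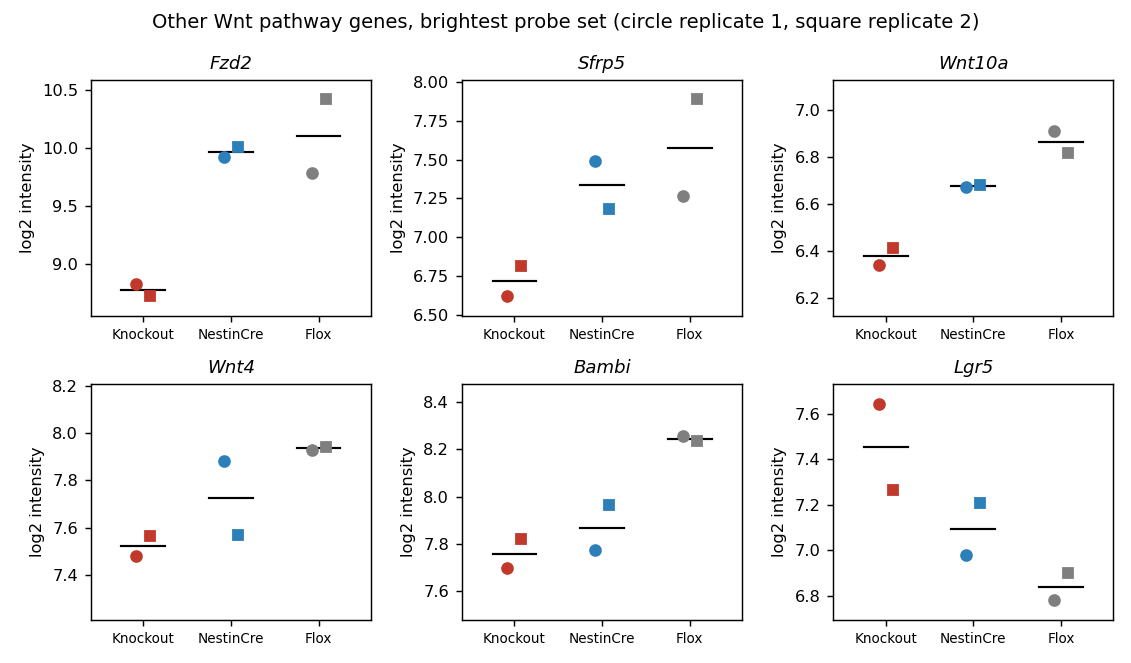
Log2 intensity in each array of Fzd2, Sfrp5, Wnt10a, Wnt4, Bambi and Lgr5 at the brightest probe set, with circles for replicate 1, squares for replicate 2 and lines for group means. Knockout lies below both controls for Fzd2 and Sfrp5. Wnt10a separates all 3 groups, Bambi separates Flox control from the others, and Lgr5 is highest in knockout. Vertical axes differ between panels.

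Markers of some other cell types were also lower in knockout, and their part in these differences was not tested. In bulk RNA, fewer cells of a type and less RNA per cell cannot be told apart. All 11 measured choroid plexus markers were below 0 in knockout against both controls, 5 of them at an unadjusted limma p under 0.05, with a median of -0.34. Over all genes 59.3% were below 0 and 6.45% lower at that p, which also stand beside the lists that follow. Kcne2 and Kcnj13, channels of the plexus epithelium, stood at -0.47 (SE 0.11) and -0.45 (SE 0.10). The summed intensity of the list was 14121 and 14492 in knockout, 16173 and 14872 in NestinCre control and 15444 and 15337 in Flox control. Of 12 pericyte and smooth muscle markers 11 were below 0 (median -0.59), 8 of them at an unadjusted p under 0.05, with a summed intensity of 4739 and 4441 in knockout, 7537 and 7450 in NestinCre control and 8313 and 7885 in Flox control. Rgs5, a pericyte marker, was the 1 gene of these lists to pass after adjustment and fell by 2.16 (SE 0.08, limma, adjusted p = 0.0263), with 9.06 and 8.86 in knockout, 11.05 and 11.13 in NestinCre control and 11.19 and 11.12 in Flox control. Of 11 neural stem and progenitor markers 10 were below 0 (median -0.21), 5 of them at an unadjusted limma p under 0.05. Of 8 ependymal markers 7 were below 0 (median -0.21), 3 of them at that p. Hes5, a Notch effector on the progenitor list, stood at -1.38 (SE 0.14). Meningeal and fibroblast markers went both ways, with 5 of 12 below 0. At an unadjusted limma p under 0.05, 4 of the 12 were lower and 1 higher, where 4.16% of all genes were higher. Lum, a matrix proteoglycan, stood at -0.30 (SE 0.05), Aldh1a2, a retinoic acid enzyme, at -0.35 (SE 0.07) and Dcn, another proteoglycan, at 0.44 (SE 0.11). Endothelial markers had a median of 0.058, with 6 of 11 above 0.

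Thalamic, hippocampal, cerebellar and olfactory bulb markers had medians of 0.017, -0.078, -0.071 and -0.082. Of these 4 lists, cerebellum had 1 and olfactory bulb 2 lower genes at an unadjusted limma p under 0.05, and none had a higher one.

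The genes whose levels over the 6 arrays were most like those of the 7 members above median brightness were sought among 11475 genes of the same kind, by Pearson's r. With 6 arrays in 3 groups such values are high for many genes, and they are given as a description. The nearest to Sfrp1 were Lipo3 (r = 0.998), Ranbp3l (r = 0.995) and Wdr77 (r = 0.992), and 59 genes exceeded 0.95. To Rspo2 they were Coch (r = 0.998), Bpnt2 (r = 0.995) and Shroom2 (r = 0.994), and to Rspo3 Xrcc4, Cox17 and Kcnk1 (r = 0.993 to 0.995). Sfrp2 was followed most closely by Aasdhppt, Pex2 and Ern1 (r = 0.988 to 0.993) and Dkk3 by Tsc22d4, Cmtm5 and Ndrg2 (r = 0.987 each). For Axin2 they were Prdm15 (r = 0.998), Sez6l and Ago2 (r = 0.991 each), and for Lef1 Vps13b (r = 0.994), Kitl (r = 0.985) and Kctd4 (r = 0.983), with 20 genes over 0.95 for Lef1. Ranbp3l differed by -0.69 between knockout and both controls.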

How the data were processed

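The authors deposited 1 intensity per probe set and array for 6 one-colour arrays of mouse brain RNA. Per the submitters' processing notes the tools were GCOS and RMA, given without version, role or order. RMA corrects background, equalises array distributions and compresses differences at dim probe sets. The deposited intensity values were linear, so log2 was taken, and array medians were 7.32 to 7.36 on that scale. After removal of 64 controls, 45037 probe sets were tested, and names came from probe sets with 1 symbol in the platform annotation.

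Group means were fitted to all 6 arrays with limma 3.58.1 (R 4.3.3), using eBayes without trend, and the residual degrees of freedom were 3. Benjamini-Hochberg adjustment covered all probe sets in each of 4 comparisons, at a threshold of 0.05. A second, looser rule was an unadjusted p under 0.05. Each SE belongs to a fitted log2 difference, and 95% intervals use the moderated degrees of freedom. The fit was checked on simulated data with changes put into probe sets above the median brightness. Changes of 0.5, 1, 2 and 3 were put in together. A true log2 difference of 0.5 passed adjustment in 24% of cases, and one of 1 in 88%. Such rates depend on how many changes are put in and how large they are. They need not hold for the measured data. A lack of adjusted calls therefore does not show a lack of change at differences of the size seen here. Nothing in the labels ties each sample to its own animal, so the p-values cover sample-to-sample spread only, part of which may be technical.

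The 9 genes and all lists were chosen with earlier results of these data known. All member probe sets are given, probe sets of a gene are ordered by mean level, and other list genes are named by smallest unadjusted p, up to 3 per list, among those with an unadjusted p under 0.05. Cell type genes were named by highest level or by the same rule. Frzb was chosen after its values were seen, as was which cell type genes to leave unnamed. Genes alike over the arrays were the 3 with the highest Pearson r. Alternatives were a repeated quantile normalization, median centring, the brighter probe sets only, 1 probe set per gene, an intensity trend with robust fitting, only the compared groups, the replicate number as a block, log2 of intensity plus 16, sex as a covariate, female arrays alone, and each array left out. The number of arrays limits the precision.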

Additional observations from a re-analysis of the deposited data

How the results depend on the processing

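No member probe set passed after adjustment under any alternative in any of the 4 comparisons. At an unadjusted limma p under 0.05 against both controls, 5 member probe sets became 2 with the brighter probe sets only, 2 with the female arrays alone, and 3 (without knockout replicate 1) to 4 without 1 array. Against NestinCre control, 2 became 1 with 1 probe set per gene, the brighter probe sets, the female arrays or the compared groups alone, and 1 to 3 without 1 array (1 without knockout replicate 1, NestinCre control replicate 2 or either Flox control array). Against Flox control, 6 became 2 with the brighter probe sets, 3 with sex as a covariate, and 3 (without knockout replicate 1) to 6 without 1 array. Between the controls, 3 became 5 with the replicate block. Sfrp1 and Rspo1 kept an unadjusted p under 0.05 against both controls in every alternative that tested them, at -0.52 to -0.36 and -0.46 to -0.29. Rspo3 reversed to 0.052 in the female arrays alone. Axin2 ranged over -0.041 (without knockout replicate 1) to 0.31 (without knockout replicate 2), with 1 knockout array left in each fit. Lef1 and Sfrp2 reached an unadjusted p under 0.05 without Flox control replicate 2 (-0.18) and without NestinCre control replicate 1 (-0.25).

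Over all probe sets, the 7 adjusted calls against both controls became 34 with 1 probe set per gene and with the brighter probe sets (fewer tests), 22 after median centring, 202 with an intensity trend, and 0 with the replicate block, sex as a covariate or the female arrays, and 0 to 1 (without Flox control replicate 2) without 1 array. Against NestinCre control 0 calls became 10, 11, 9 and 72 under the first 4 of these, 1 with the compared groups alone, and 0 to 1 (without either Flox control array) without 1 array. Against Flox control 2 calls became 20, 23, 9 and 325, and 0 with quantile normalization, log2 of intensity plus 16, the compared groups alone, the replicate block, sex, the female arrays or without 1 array. Between the controls 0 became 6 with an intensity trend and 0 to 2 (without Flox control replicate 1) without 1 array. Fits on fewer probe sets also re-estimated the spread, and the part of fewer tests alone was not tested. Where no construction explains a move, the cause was not tested. Same-numbered arrays were not treated as pairs in the main fit. Their deviations correlated at -0.31 (knockout with NestinCre control), -0.24 (knockout with Flox control) and 0.19 (NestinCre with Flox control). With 2 arrays per group these values cannot decide whether the numbers pair the samples. Replicate 1 was male in knockout and female in NestinCre control, and replicate 2 the reverse. Low signal limits Wif1, Rspo1 and the dimmer probe sets. The brightest probe sets of Sfrp5, Lgr5 and Ror1 also lay below the median brightness.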
